A study of Mus musculus with 18 samples.

Results

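The comparison set 3 samples of 3T3-L1 adipocytes treated with 100 nM rosiglitazone against 3 samples treated with DMSO, the vehicle, out of 18 samples in the series. The samples were chosen by their titles, and each was hybridised to 1 Illumina mouse expression array. 3T3-L1 is an established mouse preadipocyte line that fills with lipid droplets when it is differentiated in culture. All samples had been differentiated for 7 days by the supplier's protocol and were then exposed to compound or vehicle for 24 hours, so the vehicle cells were adipocytes too and not undifferentiated controls. The other 12 samples received sodium diclofenac at 25 µM, indomethacin at 10 µM, ibuprofen at 75 µM or GQ16 at 10 µM, with 3 samples each, and shared in the estimate of the spread. The line is clonal, and nothing in the labels tells separate cultures from repeat samples of a culture, so the p-values speak for the spread among these samples only and that spread may be technical.

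Rosiglitazone is a drug of the thiazolidinedione class and a ligand of PPARγ, a nuclear receptor that pairs with RXR and binds DNA at direct repeats of a short half-site. In fat cells the receptor is known to switch on genes for taking up fatty acids, packing them into triglyceride and coating lipid droplets. Drugs of this class are known as insulin sensitisers, and PPARγ ligands are also known to dampen inflammatory genes. In the series, which concerns activation of PPARγ by anti-inflammatory drugs and GQ16, rosiglitazone is the established PPARγ ligand set against the vehicle.

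The values are log2 intensities that the authors had normalized to a common distribution on every array. Their lowest value was 5.68, the median 5.98 and the highest 14.8. A probe was taken as above background over 6.18, and on each of the 6 arrays 42.1% of probes were. Dim probes lie close to the floor, so changes of weakly expressed genes are understated. Adipocyte markers were detected: 10 of 11 on the array were above background on at least 3 of the 6 arrays, and the exception was Acvr1c. Their levels ranged widely, with DMSO means of 14.43 for Lpl and 6.86 for Lep. Of 12 macrophage markers on the array, 8 were below background on all 6 arrays, among them Adgre1, Ptprc and Lyz2, and the same held for 7 of 10 endothelial markers, among them Pecam1 and Cdh5. Each array carries a single value per probe, and the number of arrays limits the precision.

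Rosiglitazone replicate 1 lay on slide 3 and DMSO replicate 3 on slide 2, whereas the other 4 arrays shared slide 1. These arrays were also the ones farthest from their groups. Root mean square deviations from the group mean over all genes were 0.286, 0.229 and 0.156 for rosiglitazone replicates 1 to 3 and 0.120, 0.136 and 0.207 for DMSO replicates 1 to 3. Rosiglitazone replicates 1 and 2 correlated at 0.973, below the 0.984 between rosiglitazone replicate 3 and DMSO replicate 3, across genes, which are not independent replicates. Of the 46 gene lists below, 40 had a number raised or lowered that moved by over 1.5 times when 1 of the 6 arrays was left out, and 22 when both arrays on other slides were left out or on slide 1 alone. Many of these counts are small, and moves by more than 1 gene are given beside them.

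Rosiglitazone changed 1984 of 10958 genes, or 18.1% (limma, Benjamini-Hochberg adjusted p under 0.05, the rule by which a gene is said here to have risen or fallen). It raised 883 genes (8.06%) and lowered 1101 (10%), and these percentages are the background for every list below. With arrays shifted to a common median over the genes tested the split was 1104 raised and 942 lowered, so which direction was the more frequent depended on the scaling. The median change was 0.55 on the log2 scale among raised genes and -0.58 among lowered genes, and 79 genes rose and 132 fell by more than 2-fold. The values of the 2 groups did not overlap in 3147 genes (28.7%), of which 1813 were called. Of the 1984 genes, 1733 were called in the same direction with slide as a block, 1396 without the 2 arrays on other slides, 1486 on slide 1 alone and 905 whichever of the 6 arrays was left out. The count fell to 1204 without DMSO replicate 1 and to 1198 without DMSO replicate 2. Most calls were of modest size, and Acaa1b stood clear of all other genes, as the plot of change against level shows.

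**Figure D1:**
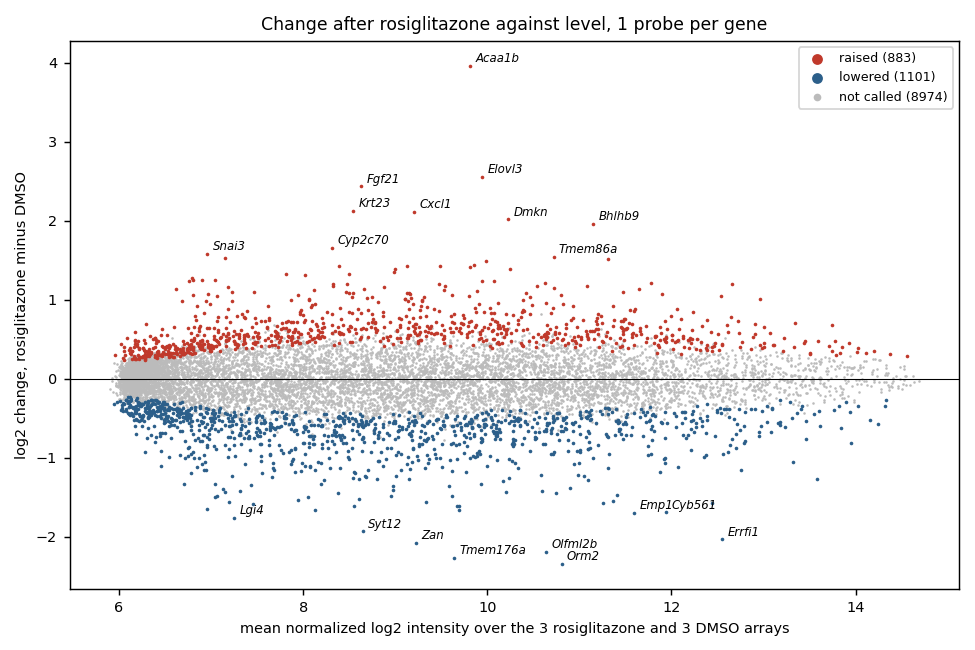
Log2 change (rosiglitazone minus DMSO, y axis) against mean normalized log2 intensity over the 6 arrays (x axis), with 1 point per gene for the 10958 genes tested. Raised genes (883) are red, lowered genes (1101) blue and genes not called grey. Acaa1b stands alone at 3.96, and the next rise, Elovl3, lies at 2.55.

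The gene that rose most was Acaa1b, a peroxisomal 3-ketoacyl-CoA thiolase that takes part in the shortening of very long fatty acids. Its log2 intensity was 11.82, 11.71 and 11.86 in rosiglitazone samples, against 7.89, 7.77 and 7.84 in DMSO samples. The groups were far apart and tight within themselves, and the change of 3.96 ± 0.16 (SE, n = 3 per group) corresponded to a 15.6-fold rise with an adjusted p of 2.12e-14 (limma). The close relative Acaa1a shares much of its sequence, and which of the pair the probe bound was not tested.

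Elovl3, an elongase that makes very long chain fatty acids in brown and beige fat, had values of 11.70, 10.93 and 11.02 with rosiglitazone, against 8.67, 8.57 and 8.76 with DMSO. Rosiglitazone replicate 1 was the highest, and all 3 rosiglitazone values exceeded every DMSO value (5.86-fold, adjusted p = 7.82e-10). Fgf21, a secreted hormone of fasting and of fat metabolism, stood at 9.58, 10.00 and 9.96 in rosiglitazone samples, against 7.46, 7.13 and 7.64 in DMSO samples. This 5.41-fold rise again left no overlap. Krt23, a keratin of epithelia, was at 9.76, 9.40 and 9.66 with rosiglitazone and at 7.38, 7.26 and 7.80 with DMSO. Cxcl1, a chemokine that attracts neutrophils, was at 10.69, 10.03 and 10.05 with rosiglitazone and at 7.95, 8.07 and 8.44 with DMSO.

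The other 10 of the 15 largest rises ranged from 1.43 to 2.02 on the log2 scale. They included Rbp7, a retinol-binding protein of adipose tissue (1.53 ± 0.12), Ces1d, a carboxylesterase with triglyceride lipase activity (1.51 ± 0.16), and Decr1, the mitochondrial dienoyl-CoA reductase needed for the oxidation of unsaturated fatty acids (1.44 ± 0.17). Tmem86a, a lysoplasmalogenase, rose by 1.54 ± 0.15, and Gpcpd1, which splits glycerophosphocholine, by 1.49 ± 0.22. Nipsnap1, a mitochondrial protein, rose by 1.43 ± 0.20. Snai3, a zinc finger factor of the Snail family, was at 8.22, 7.38 and 7.64 with rosiglitazone and near the background level with DMSO, at 6.19, 6.13 and 6.19. Dmkn, a secreted protein of the epidermis (2.02), the X-linked Bhlhb9 (1.96) and Cyp2c70, a cytochrome P450 known for bile acid hydroxylation in mouse liver (1.66), completed the set. Each of these 15 genes, like each of the 15 largest falls below, was called in the same direction under every setting tried, whichever array was left out.

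The deepest fall was that of Orm2, a plasma acute-phase protein of the orosomucoids. It read 9.61, 9.46 and 9.83 in rosiglitazone samples, against 11.88, 12.11 and 11.94 in DMSO samples, a change of -2.34 ± 0.14 (adjusted p = 5.06e-11). Its neighbour in sequence Orm1 was brighter and moved the same way, at 12.72, 13.01 and 13.12 with rosiglitazone against 14.24, 14.20 and 14.21 with DMSO. Probes of the pair may bind both transcripts.

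Errfi1, an inhibitor of the EGF receptor, was bright in vehicle cells and fell by 2.03 ± 0.14. Its values were 11.16, 11.73 and 11.71 with rosiglitazone and 13.41, 13.61 and 13.67 with DMSO. Olfml2b, an extracellular matrix protein, was at 9.06, 9.84 and 9.72 with rosiglitazone and at 12.07, 11.73 and 11.39 with DMSO. Tmem176a, a membrane protein, was at 8.26, 8.63 and 8.63 with rosiglitazone and at 11.02, 11.13 and 10.17 with DMSO, where DMSO replicate 3 was the lowest of its group. Vcam1, an adhesion molecule that holds leukocytes, was at 8.73, 9.0 and 8.94 with rosiglitazone and at 10.53, 10.46 and 10.52 with DMSO, without overlap.

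The other falls of this set ranged from -1.61 to -2.08. Tgfbi, a matrix protein induced by TGF-β, fell by 1.61 ± 0.17, Itih4, an acute-phase protein of the inter-alpha-trypsin inhibitor family, by 1.61 ± 0.16, and Cyp1b1, a cytochrome P450 of the aryl hydrocarbon receptor programme, by 1.66 ± 0.26. Rgs2, which shortens signalling by Gq-coupled receptors, fell by 1.66 ± 0.19. Lgi4 and Syt12, both better known from the nervous system, fell by 1.76 ± 0.13 and 1.93 ± 0.18. Emp1 (-1.69), Cyb561 (-1.69), an ascorbate-dependent electron carrier, and Zan (-2.08) complete the group with Phkg1, the catalytic subunit of phosphorylase kinase. Phkg1 was above background on 1 of 3 rosiglitazone arrays and on all 3 DMSO arrays (-1.65), so its fall ended near the floor.

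**Figure D2:**
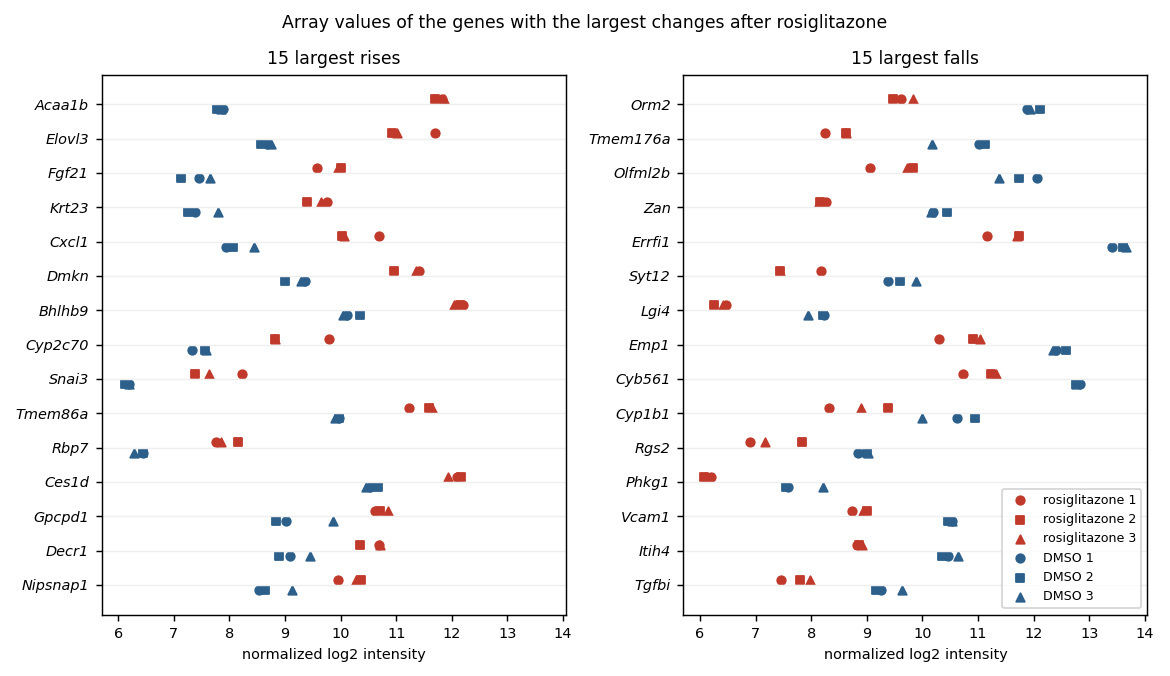
Normalized log2 intensity (x axis) on each of the 3 rosiglitazone (red) and 3 DMSO (blue) arrays for the 15 largest rises (left) and the 15 largest falls (right) among genes whose groups do not overlap; the marker's shape gives the replicate. Rosiglitazone replicate 1 is the highest array for Elovl3 (11.70), Cxcl1 (10.69), Cyp2c70 (9.78) and Snai3 (8.22) and the lowest for Errfi1 (11.16) and Emp1 (10.30).

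PPARγ and RXR are known to bind direct repeats of the half-site AGGTCA spaced by 1 base. The motif AGGTCANAGGTCA was searched on both strands in RefSeq promoter windows of GRCm38.p6, which run from 250 bases before to 50 bases after a gene's start, with at most 2 mismatches at its 12 fixed bases. It was found in 3.86% of 32851 windows and in 334 of the 8906 genes tested that have a window (3.75%). The share was 35 of 711 raised genes (4.92%) and 26 of 870 lowered genes (2.99%). None of the 10 largest rises with a window held a match (0 of 10), and 2 of the 11 largest falls with one did. Both promoters are printed because they are the only matches among the genes of the largest changes that have a window. The rest of the 30 genes, Elovl3 among them, have no window and were not searched. Tmem176a has 2 windows, of which 1 held a match. The matching stretch is in capitals. Tmem176a (chr6:48841406-48841705, plus strand) carries it on the opposite strand, where it reads AGGCCAGAGCTCA with the changes T4C and G10C from the motif. Itih4 (chr14:30886226-30886525, plus strand) carries it on its own strand, where it reads TGGACATAGGTCA with the changes A1T and T4A. Positions are counted from 1 at the motif's 5′ end, with the motif's base first and the window's base last.
Tmem176a: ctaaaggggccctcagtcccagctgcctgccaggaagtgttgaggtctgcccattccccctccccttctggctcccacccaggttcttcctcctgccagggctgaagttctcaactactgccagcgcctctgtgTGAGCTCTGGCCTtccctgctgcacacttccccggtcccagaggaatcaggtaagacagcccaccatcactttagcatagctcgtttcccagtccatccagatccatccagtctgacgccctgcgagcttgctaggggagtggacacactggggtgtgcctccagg
Itih4: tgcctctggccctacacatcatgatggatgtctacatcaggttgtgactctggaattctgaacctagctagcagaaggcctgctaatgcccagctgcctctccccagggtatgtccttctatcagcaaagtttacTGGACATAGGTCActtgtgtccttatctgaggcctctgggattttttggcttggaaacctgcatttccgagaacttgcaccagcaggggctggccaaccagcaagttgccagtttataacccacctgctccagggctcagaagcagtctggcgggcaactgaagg
Counted from the gene start to which each printed window belongs, the match begins at position -116 in Tmem176a and at -115 in Itih4. A match is a description of letters, and binding was not measured.

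The receptor itself fell. Pparg read 13.31, 12.92 and 13.00 in rosiglitazone samples, against 13.82, 13.68 and 14.01 in DMSO samples, a change of -0.76 ± 0.12 (adjusted p = 8.32e-05), and all 3 of its kept probes moved down. Its partner Rxra (0.13) and the differentiation factors Cebpa (0.02) and Cebpb (-0.11) did not pass, with 95% intervals of -0.29 to 0.55, -0.29 to 0.33 and -0.31 to 0.09. Among 29 tested nuclear receptors and coregulators, 2 rose and 4 fell (median -0.08). The coactivator of mitochondrial genes Ppargc1a was at 9.42, 9.83 and 9.75 with rosiglitazone and at 8.68, 8.44 and 9.05 with DMSO. Its partner Esrra rose by 0.51, a call lost without rosiglitazone replicate 1 or DMSO replicate 3, or without both (adjusted p up to 0.0906 when 1 array was left out). The vitamin D receptor Vdr fell by 0.72 ± 0.18. Of 33 adipogenic transcription factors, 2 rose and 7 fell (median -0.11). Klf5 and Egr2, both known to act early in differentiation, rose by 1.19 and 1.17. Klf13 (-1.22), the brake on adipogenesis Zfp521 (-0.72) and the lipogenic factor Srebf1 (-0.56, a call lost without the 2 arrays on other slides) fell. Without rosiglitazone replicate 2, 4 of these factors rose.

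Several classical adipocyte genes were near the top of the scale already with DMSO and moved little. Adipoq, which encodes adiponectin, read 13.42, 13.80 and 13.48 with rosiglitazone and 13.54, 13.38 and 13.28 with DMSO, with overlapping groups and a change of 0.17 (95% interval -0.09 to 0.42). Lpl, lipoprotein lipase, was at 14.49, 14.37 and 14.33 with rosiglitazone and at 14.43, 14.45 and 14.40 with DMSO (-0.03, interval -0.19 to 0.13). Plin1 (0.25), Cidec (0.26), Pdk4 (0.16), Nr1h3 (0.21) and Retn (-0.13) did not pass either, each on its brightest probe. A dimmer kept probe of Nr1h3 changed more, by 0.71 ± 0.17, with means of 8.76 with rosiglitazone and 8.06 with DMSO. The dimmer kept probe of Plin1 changed by -0.07. Fabp4, the main carrier of fatty acids in the adipocyte cytosol, was at 11.58, 11.52 and 11.56 with rosiglitazone and at 11.34, 11.17 and 10.26 with DMSO. Its groups did not overlap, but DMSO replicate 3 set most of the difference and the change of 0.63 did not pass (adjusted p = 0.0997). Cidea (0.44, adjusted p = 0.0525) and Lep (-0.28, adjusted p = 0.0526) missed the threshold narrowly. Lep and Retn were dim, with means of 6.58 and 7.17 with rosiglitazone against 6.86 and 7.30 with DMSO. Fabp4 passed with slide as a block, and Plin1 and Cidea passed on slide 1 alone. A miss does not show that these levels were equal. Ucp1, the uncoupling protein of brown fat, and Ptgs2, an inducible cyclooxygenase, were above background on 0 of 18 arrays, and Cfd had no probe with its symbol.

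The lipid lists were mixed. The largest shares raised were in glycerol handling (50%) and triglyceride breakdown (38.5%). Fatty acid synthesis and fatty acid uptake had more lowered than raised members. In the list for glycerol handling, 3 of 6 tested genes rose and 1 fell (median 0.42). Aqp7, the glycerol channel of fat cells, was at 11.10, 10.56 and 10.41 with rosiglitazone and at 9.34, 9.28 and 9.76 with DMSO. Gpd1, which makes glycerol 3-phosphate, was at 11.48, 11.51 and 12.02 with rosiglitazone and at 10.34, 10.99 and 10.17 with DMSO. Pck1, the gatekeeper of glyceroneogenesis, was dim, at 6.72, 6.68 and 6.80 with rosiglitazone and at 6.26, 5.91 and 6.37 with DMSO (0.55 ± 0.11, adjusted p = 0.00113). Pyruvate carboxylase Pcx fell by 0.56 on its brightest probe, and the mean of its 2 kept probes was higher instead (0.57), so its direction is unsettled.

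Of 14 genes of fatty acid uptake, binding and activation, 2 rose and 3 fell (median -0.01). Fabp5, a fatty acid binding protein, was at 10.42, 11.61 and 10.79 with rosiglitazone and at 9.57, 9.75 and 9.33 with DMSO. Cd36, the fatty acid translocase, was at 10.08, 9.71 and 9.72 with rosiglitazone and at 9.14, 9.08 and 9.45 with DMSO (0.61 ± 0.18). Its call was lost without rosiglitazone replicate 1, DMSO replicate 1 or DMSO replicate 2, with an adjusted p of up to 0.0974. Gpihbp1, which anchors lipoprotein lipase on endothelium, fell by 0.87 and the fatty acid transporter Slc27a3 by 0.78. Of 14 droplet proteins, 2 rose and 0 fell (median 0.16): Hilpda, an inhibitor of adipose triglyceride lipase, by 1.05 ± 0.12, and the droplet coat protein Plin2 by 0.71 ± 0.17. The list had 4 raised and 1 lowered without the 2 arrays on other slides, and 5 raised and 1 lowered on slide 1 alone.

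Of 13 genes of triglyceride breakdown and its control, 5 rose and 1 fell (38.5% raised, median 0.24). Besides Ces1d, Hcar2 rose, a niacin and hydroxybutyrate receptor that restrains lipolysis, with 11.29, 11.22 and 11.18 in rosiglitazone samples against 10.13, 9.85 and 10.09 in DMSO samples. The monoglyceride lipase Mgll rose by 0.79 ± 0.19. Pnpla3, a relative of adipose triglyceride lipase, fell by 0.43, a call lost without rosiglitazone replicate 3, DMSO replicate 1 or DMSO replicate 2 (adjusted p up to 0.0818). Of 19 assembly genes, 3 rose and 2 fell (median 0.10), and 1 rose without rosiglitazone replicate 3 or DMSO replicate 2. Gpat3, which starts triglyceride synthesis on the endoplasmic reticulum, was at 12.62, 12.25 and 12.28 with rosiglitazone and at 10.95, 11.04 and 11.53 with DMSO. Lpin3, a phosphatidate phosphatase, was below background on all 3 rosiglitazone arrays and above it on all 3 DMSO arrays, so that it was at least 1.37-fold lower with rosiglitazone, a bound that uses the background level.

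Fatty acid synthesis showed both directions, with 4 of 17 genes raised and 5 lowered (median -0.17). Its regulators were on the lowered side. Mlxipl, the carbohydrate-responsive factor ChREBP, was at 8.56, 8.85 and 8.83 with rosiglitazone and at 9.69, 9.57 and 9.92 with DMSO. Thrsp, a lipogenic cofactor, was at 12.29, 11.87 and 12.29 with rosiglitazone and at 13.04, 12.96 and 13.22 with DMSO. The number raised was 2 without rosiglitazone replicate 2 and 1 without rosiglitazone replicate 3, DMSO replicate 1 or DMSO replicate 2, and 3 fell without DMSO replicate 2. Of 18 elongation and desaturation genes, 4 rose and 1 fell (median -0.11), with Elovl3 far ahead of the others, and 2 rose without rosiglitazone replicate 1 or DMSO replicate 3. Without both of these arrays, 1 rose and 2 fell. Of 9 acyl-CoA thioesterases, 2 rose and 1 fell (median 0.15): mitochondrial Acot2 rose by 1.16 ± 0.22 and peroxisomal Acot8 by 0.63 ± 0.13. Acot1 fell by 0.54 on its brightest probe, a call lost without rosiglitazone replicate 1 or DMSO replicate 3 (adjusted p up to 0.0864), and its close copy Acot2 could share signal with it.

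Most mitochondrial lists leaned upward in their medians, though not on every array. Of 72 mitochondrial ribosomal proteins, 23 rose and 0 fell (31.9% raised, median 0.22, against a median of -0.00 over all genes tested). Mrpl30 was at 12.78, 12.43 and 12.31 with rosiglitazone and at 11.72, 11.73 and 11.42 with DMSO. Mrpl55 rose by 0.82 ± 0.18 and Mrpl15 by 0.78 ± 0.11. The number raised was 11 without DMSO replicate 2, 14 without DMSO replicate 1 or without rosiglitazone replicate 3, and 24 without the 2 arrays on other slides. With only the 6 rosiglitazone and DMSO arrays in the fit, 5 rose, while 265 of all genes tested rose. In each of these fits 0 members fell. Of 34 genes of respiratory complex I, 8 rose and 0 fell (median 0.20), led by Ndufb10 (0.85, not called when DMSO replicate 3 was left out, adjusted p = 0.0523) and Ndufb7 (0.76 ± 0.16), and 5 rose without DMSO replicate 1 or 2. Of 39 genes of complexes II to V, 6 rose and 0 fell (median 0.13), and 3 rose without DMSO replicate 1 or 2. Among them Cox6a2, a cytochrome c oxidase subunit of heart and muscle, rose by 0.63 ± 0.15. The median of this list relative to DMSO was 0.07, 0.17 and 0.13 on rosiglitazone replicates 1 to 3. On DMSO replicates 1 to 3 it was 0.05, 0.02 and -0.07.

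Of 24 genes of mitochondrial fatty acid oxidation, 6 rose and 1 fell (median 0.21), and 3, 3 and 2 rose without rosiglitazone replicate 3, DMSO replicate 1 and DMSO replicate 2. Decr1 read 10.69, 10.34 and 10.72 with rosiglitazone and 9.08, 8.89 and 9.44 with DMSO. Etfdh, which passes electrons of fatty acid oxidation to ubiquinone, rose by 0.66 ± 0.14. In the tricarboxylic acid cycle with pyruvate dehydrogenase, 7 of 30 genes rose and 2 fell (median 0.16), led by Dlat, the E2 subunit of pyruvate dehydrogenase (0.71 ± 0.18), and 3 rose without rosiglitazone replicate 2 and 4 without rosiglitazone replicate 3 or DMSO replicate 3. No member fell without rosiglitazone replicate 1, DMSO replicate 1 or DMSO replicate 2. The groups overlapped in this list's median relative to DMSO. It was -0.05, 0.21 and 0.11 on rosiglitazone replicates 1 to 3 and 0.06, 0.07 and -0.10 on DMSO replicates 1 to 3. Carriers of the Slc25 family were split, with 5 of 32 raised and 5 lowered (median -0.06). The ATP and phosphate carrier Slc25a25 rose by 1.08 ± 0.18 and the S-adenosylmethionine carrier Slc25a26 by 0.96 ± 0.13. Without DMSO replicate 2 the list had 3 raised and 3 lowered, without DMSO replicate 1 it had 3 raised, and without rosiglitazone replicate 1, or on slide 1 alone, it had 3 lowered.

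The breakdown of branched-chain amino acids was a mitochondrial list that went the other way, with 0 of 24 genes raised and 5 lowered (median -0.16). The transaminase Bcat2 was at 13.22, 12.65 and 12.78 with rosiglitazone and at 13.48, 13.53 and 13.39 with DMSO. Pccb, a subunit of propionyl-CoA carboxylase, fell by 0.66 ± 0.14 (not called with the mean of its 2 probes) and the isovaleryl-CoA dehydrogenase Ivd by 0.56 ± 0.14. Acadsb fell by 0.96, but rosiglitazone replicate 1 stood at 7.76 apart from 9.79 and 9.31, and without it the call was lost (adjusted p up to 0.289 over the arrays left out). The number lowered was 3 without DMSO replicate 1 or 2 and 8 without rosiglitazone replicate 2, and the number raised was 2 without DMSO replicate 3 and 1 without rosiglitazone replicate 2 or on slide 1 alone.

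Of 29 peroxisomal enzymes and transporters, 5 rose and 0 fell (median 0.16). Ephx2, an epoxide hydrolase, was at 9.77, 10.99 and 10.60 with rosiglitazone and at 9.43, 9.73 and 9.70 with DMSO. The number raised was 3 and 2 without DMSO replicates 1 and 2, and 8 without the 2 arrays on other slides, where 2 fell. On slide 1 alone 11 rose and 2 fell. Of 15 genes of peroxisome biogenesis, 2 rose and 1 fell (median 0.25): the biogenesis factors Pex16 and Pex10 rose by 0.88 ± 0.14 and 0.70 ± 0.17, and the membrane channel Pxmp2 fell by 0.66 ± 0.15. Of 13 thermogenic genes, 3 rose and 1 fell (median 0.19). The 3 were Elovl3, Fgf21 and Ppargc1a, and the potassium channel Kcnk3 fell by 0.81 ± 0.15.

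**Figure D3:**
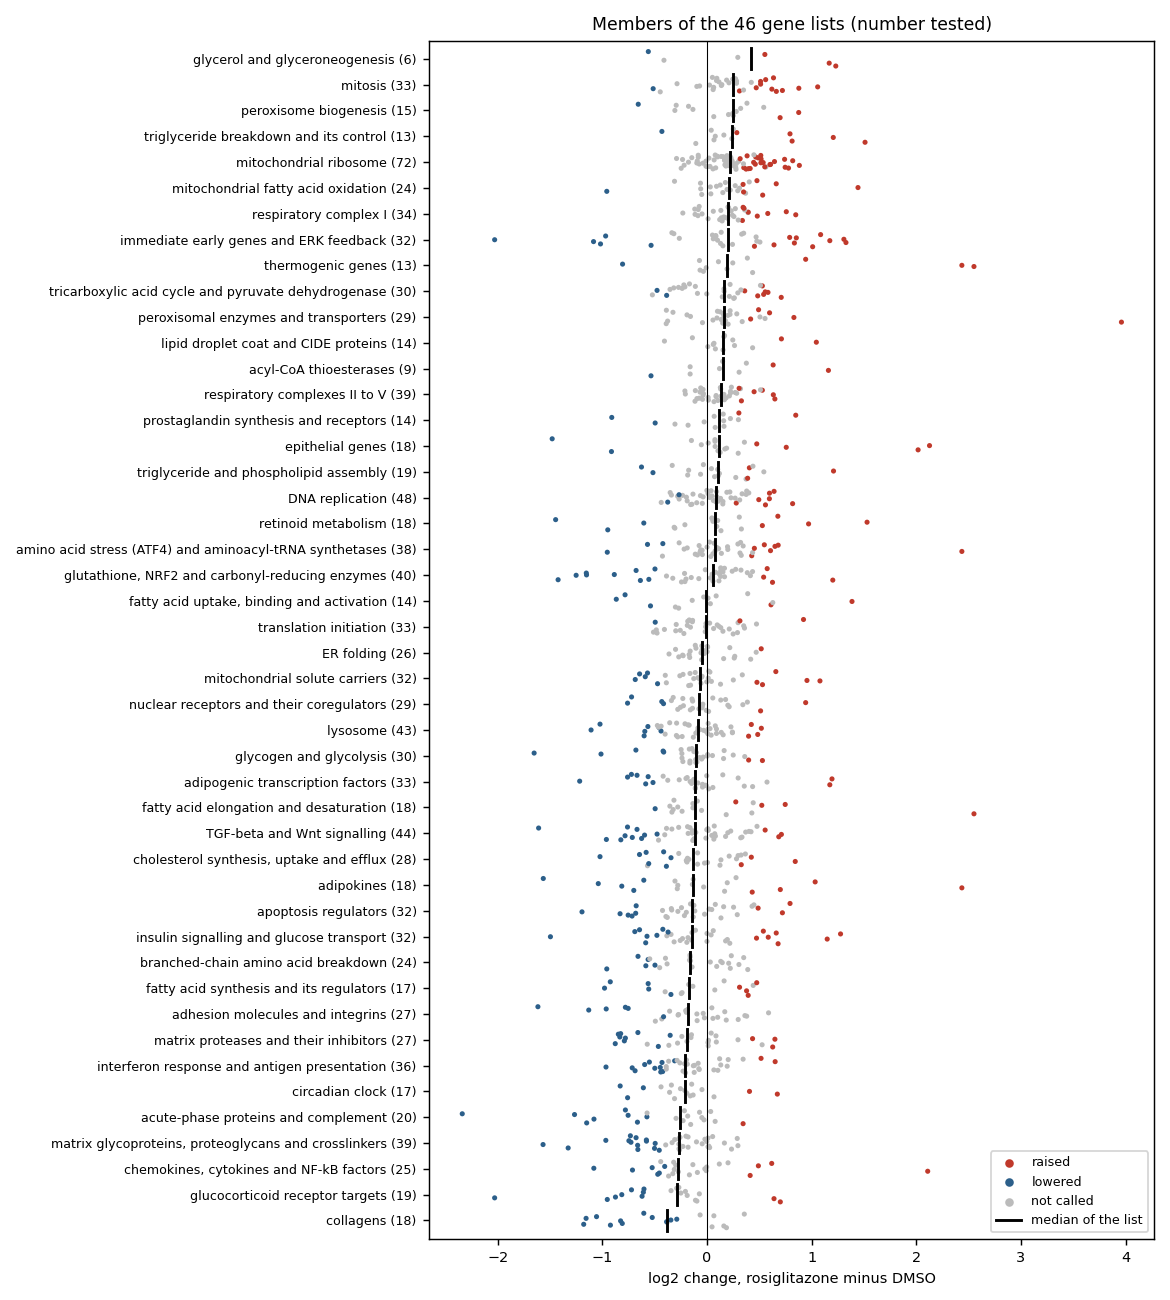
Log2 change (rosiglitazone minus DMSO, x axis) of every tested member of the 46 gene lists (rows, ordered by the median, with the number tested in brackets); raised members are red, lowered members blue and members not called grey, and the black bar is the list's median. Medians run between 0.42 for glycerol handling (6 genes) and -0.38 for collagens (18 genes).

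Insulin signalling and glucose transport held strong changes in both directions, with 7 of 32 genes raised and 8 lowered (median -0.15). Irs2, an adaptor of the insulin receptor, was at 11.28, 11.18 and 11.45 with rosiglitazone and at 10.02, 9.90 and 10.54 with DMSO. Pik3ip1, an inhibitor of phosphatidylinositol 3-kinase, was at 6.20, 6.26 and 6.43 with rosiglitazone and at 7.84, 7.77 and 7.78 with DMSO. Sgk2, a kinase downstream of that pathway, was at 7.44, 7.42 and 7.44 with rosiglitazone and at 6.03, 6.16 and 6.29 with DMSO, where only 1 array was above background. Akt2 rose by 0.68 ± 0.15. The glucose transporters parted: Slc2a1 (GLUT1) rose by 0.66 ± 0.13, whereas Slc2a4 (GLUT4), the insulin-responsive transporter, was at 10.52, 10.87 and 10.89 with rosiglitazone and at 11.37, 11.34 and 11.64 with DMSO (-0.69 ± 0.15, adjusted p = 0.00248). Foxo1 fell by 0.59, a call lost without rosiglitazone replicate 3 or DMSO replicate 3 (adjusted p up to 0.0900), and 5 of the list's genes fell without rosiglitazone replicate 3. Of 30 glycogen and glycolysis genes, 2 rose and 5 fell (median -0.11), and a second phosphorylase kinase subunit, Phka2, fell by 1.01 ± 0.15 beside Phkg1. None of the 30 rose without DMSO replicate 1 or 2.

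Immediate early genes and feedback inhibitors of ERK signalling had 10 raised and 5 lowered of 32 tested members (median 0.20), between 9 and 12 raised whichever array was left out. Fos was at 8.01, 8.96 and 9.06 with rosiglitazone and at 7.36, 7.40 and 7.35 with DMSO. Dusp5, a nuclear phosphatase of ERK, was at 8.86, 8.26 and 8.31 with rosiglitazone and at 7.10, 7.21 and 7.14 with DMSO. Egr2, named above, and Phlda1 (1.09 ± 0.19) rose as well. In the same list Errfi1, Dusp7 (-1.08 ± 0.17), Dusp14 (-1.02 ± 0.14) and the EGF receptor inhibitor Lrig1 (-0.97 ± 0.16) fell.

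Targets of the glucocorticoid receptor were mostly on the lowered side, with 8 of 19 lowered and 2 raised (median -0.29). Fkbp5, a chaperone of that receptor, was at 11.96, 12.47 and 12.35 with rosiglitazone and at 13.14, 13.30 and 12.97 with DMSO. Ddit4, an inhibitor of mTORC1, fell by 0.95 ± 0.10. The members that rose were the phosphatase Dusp1 (0.64 ± 0.16) and Angptl4, a lipoprotein lipase inhibitor that PPARγ also controls, at 13.77, 13.72 and 13.58 with rosiglitazone and at 13.06, 13.19 and 12.72 with DMSO. The number lowered was 5 without DMSO replicate 2. Of 17 clock genes, 2 rose and 3 fell (median -0.21), with the period gene Per3 down by 0.83 ± 0.20, a call lost without the 2 arrays on other slides. The clock list's median relative to DMSO was -0.69 on rosiglitazone replicate 1, against -0.02 and -0.29 on replicates 2 and 3, and 6 members fell without rosiglitazone replicate 2 and 1 without DMSO replicate 1 or 2. Without the 2 arrays on other slides, or on slide 1 alone, 0 clock genes rose and 2 fell.

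Among detoxifying enzymes, 4 of 40 rose and 9 fell (median 0.05). The lowered members included several glutathione S-transferases. Gstm2 was at 12.12, 12.16 and 12.26 with rosiglitazone and at 13.15, 13.30 and 13.53 with DMSO. Gstm1 (-1.25 ± 0.23) and Gstt3 (-1.15 ± 0.21) fell too, and members of the Gstm family are similar enough that probes may share signal. Cyp2f2, a cytochrome P450 of lung and liver, fell by 1.42 ± 0.16. Cbr3, a carbonyl reductase, averaged 13.26 ± 0.27 in rosiglitazone samples and 12.06 ± 0.07 in DMSO samples (SD, n = 3 each), a rise of 1.20 ± 0.13. Without rosiglitazone replicate 3, 2 members of the list rose. Of 18 retinoid genes, 4 rose and 3 fell (median 0.08), and 5 fell on slide 1 alone. Rbp7 was joined by the dehydrogenase Dhrs9 (0.97 ± 0.16) and the saturase Retsat (0.68 ± 0.14), while Rdh12, which reduces retinal, fell by 1.45 ± 0.18 and Aldh1a1, which oxidises it to retinoic acid, by 0.95 ± 0.20. Of 14 prostaglandin genes, 2 rose and 2 fell (median 0.12): Ptgr2, which inactivates prostaglandins, rose by 0.85 ± 0.18, and the prostacyclin synthase Ptgis fell by 0.91 ± 0.14.

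Secreted proteins changed in a mixed way. Of 18 adipokines, 4 rose and 5 fell (median -0.14). Besides Fgf21 and Angptl4, Nrg4, a neuregulin released by brown fat, rose and stood at 10.69, 11.02 and 11.23 with rosiglitazone against 9.83, 9.70 and 10.31 with DMSO. Sparcl1, a matrix-associated glycoprotein, was at 6.18, 6.61 and 6.46 with rosiglitazone and at 7.96, 8.13 and 7.85 with DMSO. Lcn2, an iron-siderophore carrier of inflammation, fell by 0.81 ± 0.10, and angiotensinogen, Agt, by 0.70 ± 0.14. Nampt fell by 1.04, a call lost without rosiglitazone replicate 1, DMSO replicate 1 or DMSO replicate 2 (adjusted p up to 0.117). Of 20 acute-phase and complement genes, 8 fell and 1 rose (median -0.26). After the orosomucoids came complement C4a (-1.15 ± 0.16), whose near-identical copy C4b could share its signal, and the copper carrier ceruloplasmin, Cp (-1.08 ± 0.20). The number lowered stayed between 8 and 10 whichever array was left out.

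Of 25 chemokine, cytokine and NF-κB genes, 4 rose and 6 fell (median -0.27). Cxcl1 stood apart from the rest of the raised members, the next of which, Tnfaip2, rose by 0.62. Il15, a cytokine of natural killer cells, was at 6.75, 6.80 and 6.94 with rosiglitazone and at 7.75, 7.84 and 8.14 with DMSO. The number lowered was 3 without DMSO replicate 1 and 2 without DMSO replicate 2. Of 36 interferon and antigen presentation genes, 11 fell and 2 rose (median -0.21). Ifitm3, an antiviral membrane protein, was at 11.63, 10.94 and 11.23 with rosiglitazone and at 12.52, 12.22 and 11.96 with DMSO. Irf7, a regulator of interferon genes, fell by 0.60 ± 0.11 to a level above background on 1 of 3 rosiglitazone arrays. The number lowered was 6 without rosiglitazone replicate 2 or DMSO replicate 1, and 7 without rosiglitazone replicate 3 or DMSO replicate 2.

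Lists of the extracellular matrix had more lowered than raised members. Of 18 collagens, 11 fell and 0 rose (median -0.38). Col18a1 was at 11.24, 11.44 and 11.19 with rosiglitazone and at 12.69, 12.47 and 12.24 with DMSO. Col4a5, a basement membrane collagen, fell by 1.16 ± 0.17, Col5a2 by 1.06 ± 0.21 and Col16a1 by 0.92 ± 0.17. Of 39 matrix glycoproteins, proteoglycans and crosslinkers, 14 fell and 0 rose (median -0.27). Lox, the lysyl oxidase that crosslinks collagen, was at 11.46, 11.59 and 11.94 with rosiglitazone and at 13.22, 13.19 and 13.28 with DMSO. Fibronectin, Fn1, was at 9.67, 8.70 and 9.45 with rosiglitazone and at 10.56, 10.31 and 10.92 with DMSO. Without DMSO replicate 1 or 2, 7 collagens fell, and 9 of the 39 fell without DMSO replicate 2.

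The matrix proteases and their inhibitors followed with 9 of 27 lowered and 3 raised (median -0.19), and 1 raised without rosiglitazone replicate 3, without DMSO replicate 3 or without both arrays on other slides. The gelatinase Mmp2 fell by 0.83 ± 0.15 and the inhibitor Timp1 by 0.85 ± 0.16. Timp2 fell by 0.82 with overlapping groups, a call lost without rosiglitazone replicate 2, DMSO replicate 1 or DMSO replicate 2 (adjusted p up to 0.156). Of 27 adhesion molecules and integrins, 6 fell and 0 rose (median -0.19), among them Ncam1 (-1.13 ± 0.25, with 2 of its 4 kept probes in that direction) and the syndecan Sdc2 (-0.96 ± 0.17). The list had 2 raised and 9 lowered without the 2 arrays on other slides and on slide 1 alone, and 1 raised and 9 lowered without DMSO replicate 3. Of 44 TGF-β and Wnt genes, 10 fell and 3 rose (median -0.12). The matricellular protein Ccn4, a Wnt target, fell by 0.96 ± 0.15 and the BMP antagonist Grem1 by 0.78 ± 0.16. The number raised was 0 without DMSO replicate 2, 1 without DMSO replicate 1 or rosiglitazone replicate 1, and 5 without rosiglitazone replicate 3.

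Markers of preadipocytes and fibroblasts moved with these matrix lists. Of 14 tested markers, 8 fell and 1 rose (median -0.45), and Twist2 was the one that rose (1.09). The summed level of the list, on the linear intensity scale, was 16520 to 19009 on the rosiglitazone arrays and 20983 to 25961 on the DMSO arrays, without overlap. Dpp4, Fap and Pi16, markers of progenitor cells, were below background on all 6 arrays. Col1a1 and Col3a1 stand in this list and among the collagens. Of 10 tested adipocyte markers, 3 rose and 0 fell, with a summed level of 64494 to 66127 on the rosiglitazone arrays and 51379 to 61071 on the DMSO arrays. The part of these shifts in the matrix and lipid results was not tested, and in bulk RNA fewer cells of a type and less RNA per cell cannot be told apart.

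Genes of cell division were a further group on the raised side. Of 33 mitosis genes, 11 rose and 1 fell (33.3% raised, median 0.25). Cenpa, the centromeric histone, was at 11.23, 11.38 and 11.38 with rosiglitazone and at 10.17, 10.18 and 10.45 with DMSO. Cdca3 rose by 0.88 ± 0.19 and survivin, Birc5, by 0.72 ± 0.18, of which the second call was lost without the 2 arrays on other slides. The number raised was 5 without rosiglitazone replicate 3 or DMSO replicate 1, 6 without the 2 arrays on other slides, and 5 on slide 1 alone. Of 48 DNA replication genes, 7 rose and 2 fell (median 0.09), led by the licensing factor Cdt1 (0.82 ± 0.19). Between 3 and 8 rose whichever array was left out, with 3 without DMSO replicate 1 and 4 without DMSO replicate 2 or rosiglitazone replicate 1 or 3. With only the 6 rosiglitazone and DMSO arrays in the fit, 2 of the 33 mitosis genes and 2 of the 48 replication genes rose.

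The remaining lists were small in effect or split. Of 18 epithelial genes, 4 rose and 2 fell (median 0.12). Krt14 rose by 0.76 ± 0.17 beside Krt23 and Dmkn, while the epithelial master factor Trp63 was at 6.43, 6.21 and 6.34 with rosiglitazone and at 7.63, 7.76 and 8.03 with DMSO. Of 32 apoptosis regulators, 3 rose and 6 fell (median -0.14), with the inhibitor of caspases Xiap up by 0.79 ± 0.14 and the BH3-only protein Bmf down by 1.19 ± 0.12, and 1 rose without the 2 arrays on other slides. Of 38 genes of amino acid stress and aminoacyl-tRNA synthesis, 7 rose and 3 fell (median 0.07), Fgf21 included, and the isoleucyl-tRNA synthetase Iars rose by 0.61 ± 0.15, a call lost without the 2 arrays on other slides. The number raised was 4 without DMSO replicate 1 or 2 and without the 2 arrays on other slides, and the number lowered was 1 without those 2 arrays or without rosiglitazone replicate 3. Of 43 lysosome genes, 4 rose and 7 fell (median -0.09), with cathepsin L, Ctsl, down by 1.11 ± 0.16. Without DMSO replicate 1, 0 lysosome genes rose, without rosiglitazone replicate 2, 1 rose, without rosiglitazone replicate 3, DMSO replicate 2 or DMSO replicate 3, 2 rose, and without DMSO replicate 2, 4 fell. Of 28 cholesterol genes, 3 rose and 7 fell (median -0.13). The sterol sensor Insig1 rose by 0.84, but DMSO replicate 3 at 12.40 lay near the rosiglitazone arrays, and its call did not hold without DMSO replicate 1 or 2 (adjusted p up to 0.0703). The number of cholesterol genes lowered was 2 without DMSO replicate 1 or 2, 3 without rosiglitazone replicate 3 and 4 without rosiglitazone replicate 1 or on slide 1 alone. None rose without DMSO replicate 1 or 2. Of 33 translation initiation genes, 2 rose and 1 fell (median -0.01), with Eif6 up by 0.92 ± 0.13, and of 26 ER folding genes 1 rose and 0 fell (median -0.05), shares below the 8.06% of all genes that rose. The translation initiation list had 3 raised and 4 lowered without the 2 arrays on other slides and on slide 1 alone, and 3 lowered without rosiglitazone replicate 1.

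**Figure D4:**
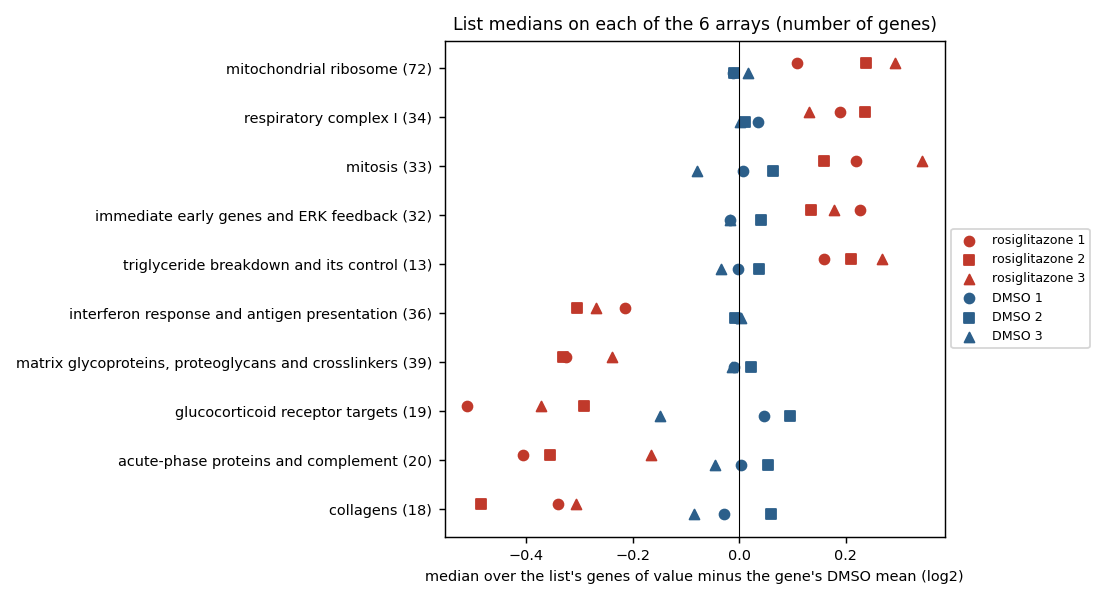
Median over a list's tested genes of each array's value minus the gene's DMSO mean (log2, x axis) for 10 lists chosen after their values were seen, on the 3 rosiglitazone (red) and 3 DMSO (blue) arrays. Rosiglitazone arrays lie apart from DMSO arrays in all 10 lists; for the mitochondrial ribosome replicate 1 is the lowest rosiglitazone array at 0.11, against 0.24 and 0.29 for replicates 2 and 3.

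The 30 genes with the largest changes were also compared between rosiglitazone and the other compounds, at concentrations that differ between compounds. These genes were chosen on the same rosiglitazone arrays, so the counts describe them and are no independent test of the rises and falls. Rosiglitazone differed from diclofenac in 213 of 10958 genes (1.94%), from indomethacin in 4 (0.0365%), from ibuprofen in 147 (1.34%) and from GQ16 in 1620 (14.8%). Against GQ16, all 15 rises were higher and all 15 falls lower with rosiglitazone. Against diclofenac the numbers were 13 and 12, against ibuprofen 7 and 4, and against indomethacin 1 and 0. With slide as a block they were 5 and 1 against ibuprofen and 3 and 2 against indomethacin, and without rosiglitazone replicate 2 they were 4 and 4 against indomethacin. All 3 ibuprofen arrays lay on slide 2, which held no rosiglitazone array. Compound and slide therefore cannot be told apart from the arrays of these 2 groups alone.

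Acaa1b was higher with rosiglitazone than with each other compound. Its mean level was 11.80 with rosiglitazone, against 9.15 with diclofenac, 10.55 with indomethacin, 10.27 with ibuprofen and 9.22 with GQ16, and against indomethacin it was the single gene of the set to pass (1.24 ± 0.16, adjusted p = 0.000347, limma). Fgf21 was not separated from indomethacin (0.38, 95% interval 0.02 to 0.73 before adjustment, adjusted p = 0.563) or from ibuprofen (0.10, interval -0.26 to 0.45). For Krt23 the differences were 0.16 from indomethacin (interval -0.18 to 0.50) and 0.06 from ibuprofen (interval -0.28 to 0.40). Orm2 was lower with rosiglitazone than with ibuprofen (-1.02 ± 0.14, adjusted p = 0.000167), and its difference from indomethacin did not pass (-0.39, interval -0.68 to -0.10, adjusted p = 0.529). A difference that missed the threshold does not show equal levels.

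**Figure D5:**
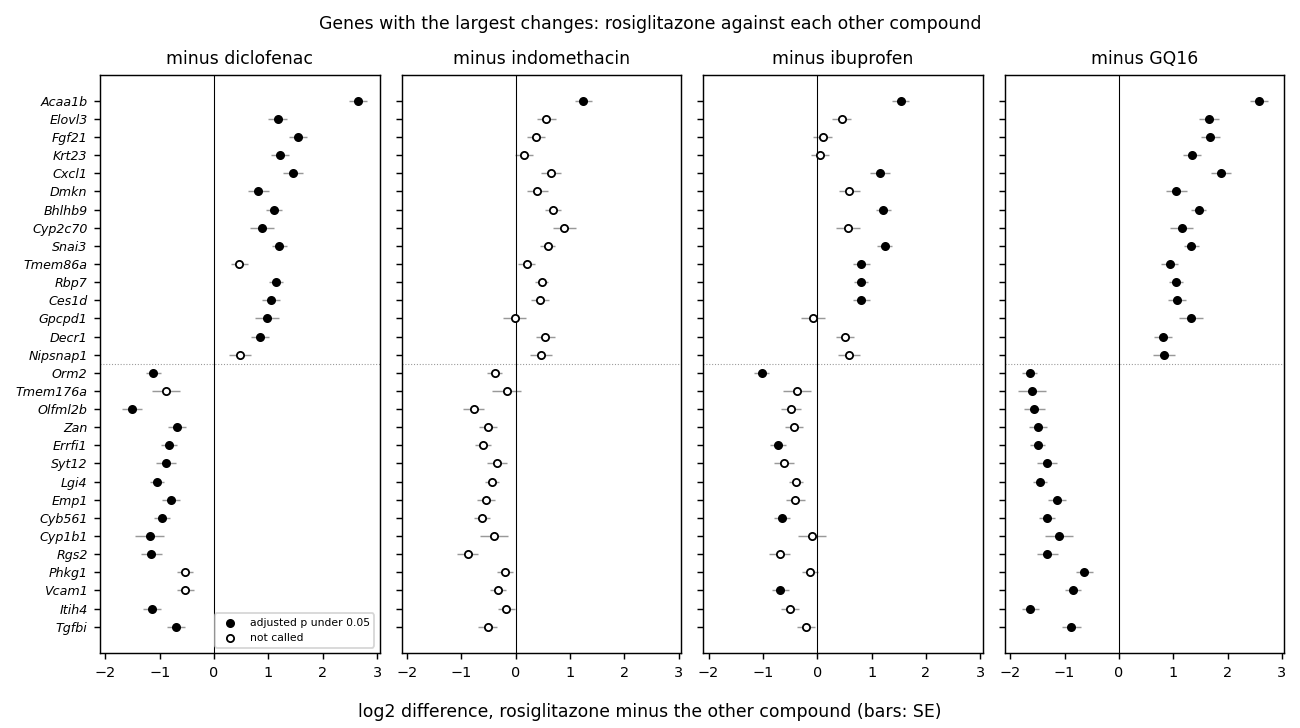
Log2 difference (rosiglitazone minus the other compound, x axis) for the 15 largest rises (above the dotted line) and the 15 largest falls (below it), with bars of 1 SE; filled points have an adjusted p under 0.05. All 30 points are filled for GQ16, 25 for diclofenac, 11 for ibuprofen and 1, Acaa1b, for indomethacin.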

How the data were processed

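RNA of 3T3-L1 adipocytes was measured on 18 Illumina arrays. The values are the deposited log2 intensities, which the authors had quantile-normalized: all 18 columns hold the same sorted values within 0.002. Base 2 was inferred from the highest value. GenomeStudio and lumi stand in the submitters' processing notes, with no version, order or setting given in the sources used here. The deposited non-normalized table was not used, because its 36 columns of values could not be matched to samples by name.

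Of 45281 probes, 34885 had 1 gene symbol, 18 several and 10378 none; 34807 matched the GRCm38.p6 RefSeq table by Entrez identifier, with 0 symbols changed. Background was the 95th percentile of 1526 receptor probes (olfactory, vomeronasal, trace amine), genes taken as silent in fat cells. Probes above it on at least 3 arrays were kept, and a gene's brightest probe stood for it, which left 10958 genes. Limma 3.58.1 in R 4.3.3 fitted 1 mean per group over 18 arrays (12 residual degrees of freedom, 11.9 prior, intensity trend), with Benjamini-Hochberg adjustment over all genes of a comparison; the script was tested on simulated data.

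The naming rule selected 268 genes: the 15 largest called rises and falls without overlap, up to 4 called rises and 4 called falls of each list, and 22 anchor genes. The text prints only part of the list members so selected, and the counts of named genes and calls below cover all of them. Twist2 and markers at background were named after their values were seen. The lists, members and rules were chosen with earlier results of these data known. Alternatives were slide, replicate, filter, probe, scaling, variance and threshold choices. Same-numbered samples were not treated as pairs: deviations of rosiglitazone and DMSO samples with numbers 1 to 3 correlated at -0.115, 0.300 and 0.0708, and the labels state no shared origin.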

Additional observations from a re-analysis of the deposited data

How the results depend on the processing

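The number of genes called was 1984. It was 745 (265 raised, 480 lowered) with only the 6 rosiglitazone and DMSO arrays in the fit and 964 (379 raised, 585 lowered) at an adjusted p under 0.01. Leaving out 1 array gave 1198 to 2417 called, 477 to 1114 raised and 716 to 1303 lowered, with the lowest counts without DMSO replicate 1 or 2. All other planned settings kept these counts within 1.5 times: slide as a fixed or random block, slide 1 alone (where the fit had 2 residual degrees of freedom), both arrays on other slides left out, other filters, the mean of all probes, a common median and no intensity trend. With the replicate number as a replicate block 1928 genes were called, and 248 of 252 named calls remained. Of the same 252 calls, 170 remained whichever array was left out and 242 in the slide-blocked fit. Of 265 named genes tested, 1 reversed in a setting: Pcx, 0.57 with the mean of its probes. Among the 30 genes of the largest changes, those that separated rosiglitazone from indomethacin numbered 5 with slide as a block and 1 to 8 without 1 rosiglitazone array, and from ibuprofen 6 with slide as a block. The causes were not tested. The planned neqc normalization and detection filter were not run, because the non-normalized columns could not be matched. Signal over background limits dim genes such as Phkg1 and Lpin3.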
